A study of Mus musculus with 6 samples.

Results

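Regions of open chromatin at the ends of single protein-coding genes, present in every library, were examined in E14.5 embryonic mouse retinas of the C57BL/6 strain. Of 45562 regions on chromosomes 1 to 19, made by merging peaks of the 6 per-library lists that shared 1 bp or more, 23702 were found in all 6 libraries, and 9150 of these had their midpoint within 1 kb of the end of exactly 1 protein-coding gene. The 9150 members are 38.6% of these 23702 and 20.1% of all regions, and they lie at 8736 genes, 42.3% of the 20665 protein-coding genes on these chromosomes. The members were chosen by the presence of a peak in all 6 libraries, so that presence, and anything it fixes, is a description and was not tested.

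The assay was ATAC-seq, where a transposase (Tn5) inserts sequencing adapters into accessible DNA. There were 3 libraries from Atoh7 +/+ embryos (called wild type) and 3 from Atoh7 SE/SE embryos, which carry a mutated shadow enhancer of Atoh7 on both alleles. Each library came from both retinas of 1 animal, taken as whole dissected tissue with no cell sorting in the protocol, so the values average over progenitors and the first-born neurons and cannot tell fewer cells of a type from less open chromatin per cell. The labels give 17, 18 and 19 PCR cycles for wild type and 15, 16 and 16 for SE/SE, so amplification and genotype cannot be told apart. The lists held 31340, 34797 and 27873 peaks in wild type and 39115, 42722 and 44242 in SE/SE, and the read depth behind them is unknown.

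Active promoters are kept free of nucleosomes around the transcription start, where general transcription factors and RNA polymerase II assemble, and this makes them among the most accessible sites of a nucleus. Most promoters of broadly expressed genes and of developmental regulators lie in CpG islands, stretches rich in the CG dinucleotide that escape DNA methylation and bind factors such as the SP and KLF families. Promoters of many tissue-restricted genes lack an island and open mainly in the cells that use them.

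The name promoter was checked against the RefSeq promoter table for GRCm38.p6, since a gene end can be its start or its far end. The strand was known for 7265 members, and 96.6% of them lay at the start, taken as the outer gene end on that side. Of the members at the start, 6694 also had a listed start within 1 kb. Others, such as those at Zbtb20 and Timeless, had none, so for them the name was not checked by a listed start. A further 245 (3.37%) lay within 1 kb of the far end only, and 240 of these had no listed start within 1 kb, so the name does not hold for them. For 1885 members the table gave no strand. Members at a start had a higher median strength (79.7 against 50.04, as the percentile explained below) and were wider (median 818 against 405 bp) than those at a far end. Among the 6694 members with a listed start within 1 kb, the midpoint lay a median of 71.5 bp downstream of that start, and 81.2% lay within 250 bp of it. Of all members, 79.3% had their midpoint inside the gene.

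Bases just before the start are shown first for the 5 strongest members that hold a listed start, since promoter sequence and strength are compared below. Each line gives 120 bases 5′ to 3′ on the strand of the gene, ending at the base before the RefSeq start (GRCm38.p6, RefSeq promoter table), with every CG in capitals.
Zswim6 (chr13:107890065-107890184, minus strand): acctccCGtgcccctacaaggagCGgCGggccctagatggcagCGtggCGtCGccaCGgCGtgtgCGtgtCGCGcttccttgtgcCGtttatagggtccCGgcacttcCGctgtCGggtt
Sp4 (chr12:118301441-118301560, minus strand): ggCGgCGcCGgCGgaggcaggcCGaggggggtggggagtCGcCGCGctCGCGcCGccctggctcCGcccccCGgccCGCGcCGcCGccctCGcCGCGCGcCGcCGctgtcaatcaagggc
Dipk2a (chr9:94538082-94538201, minus strand): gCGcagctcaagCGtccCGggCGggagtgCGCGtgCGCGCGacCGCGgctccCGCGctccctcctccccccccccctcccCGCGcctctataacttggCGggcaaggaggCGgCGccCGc
Jun (chr4:95052223-95052342, minus strand): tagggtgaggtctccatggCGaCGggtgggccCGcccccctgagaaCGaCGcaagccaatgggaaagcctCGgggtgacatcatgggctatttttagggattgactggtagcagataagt
Gsk3b (chr16:38088881-38089000, plus strand): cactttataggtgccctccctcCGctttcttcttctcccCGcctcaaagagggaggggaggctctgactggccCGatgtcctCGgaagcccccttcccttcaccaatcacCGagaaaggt
These windows held 15, 23, 19, 6 and 5 CG, so within these 120 bases CG was dense at Sp4 and sparse at Jun and Gsk3b. Over the 300 bases used below, the ratio of observed to expected CpG was 0.911 at Sp4, 0.594 at Jun and 0.734 at Gsk3b. The 120 bases of Jun and Gsk3b also held CCAAT, the motif bound by NFY.

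The 5 weakest members that hold a listed start are shown the same way, for comparison.
Hcn2 (chr10:79716514-79716633, plus strand): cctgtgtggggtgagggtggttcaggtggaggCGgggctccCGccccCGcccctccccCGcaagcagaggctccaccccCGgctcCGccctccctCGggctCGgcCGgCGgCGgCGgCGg
Trim25 (chr11:88999283-88999402, plus strand): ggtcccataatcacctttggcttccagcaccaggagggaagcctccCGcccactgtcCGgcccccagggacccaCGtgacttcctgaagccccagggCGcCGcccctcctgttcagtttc
Lrmda (chr14:22019592-22019711, plus strand): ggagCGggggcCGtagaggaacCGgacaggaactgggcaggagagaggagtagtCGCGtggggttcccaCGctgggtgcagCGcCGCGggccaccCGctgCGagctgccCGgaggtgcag
Spats1 (chr17:45474939-45475058, minus strand): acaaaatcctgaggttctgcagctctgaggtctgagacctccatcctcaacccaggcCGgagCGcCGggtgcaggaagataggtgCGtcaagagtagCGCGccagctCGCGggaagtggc
Paqr7 (chr4:134496921-134497040, plus strand): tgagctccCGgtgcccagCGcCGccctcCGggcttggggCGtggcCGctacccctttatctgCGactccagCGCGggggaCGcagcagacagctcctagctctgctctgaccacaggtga
They held 13, 5, 12, 8 and 10 CG, and these counts overlapped those of the strong members. The single sequences therefore do not separate strong from weak, and the differences reported below are between medians of many promoters.

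Strength was described by column 7 of the peak lists, a signal that the authors' peak caller summed over each peak, so it grows with peak width. To put the lists on a common scale it was turned into a percentile within each list, where 100 is the strongest peak of that library. A member's percentile is the mean over the 6 libraries unless a library is named. Peaks had to pass the caller's threshold in all 6 libraries, which removes weak regions: the 435 regions at 1 gene end with a peak in only 5 libraries had a median percentile of 28.3, against 78.5 for the members.

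Peaks at single gene ends were stronger and wider than peaks inside genes in every library. The median percentile of the members was 75.7, 78.2 and 72.8 in the wild-type libraries and 80.6, 82.3 and 82.6 in the SE/SE libraries (78.7 ± 3.89 SD, n = 6). The 6964 regions found in all 6 libraries that lay inside a gene and over 1 kb from any gene end had 50.1, 55.5, 43.4, 60.9, 64.3 and 65.5 in the same order. Members exceeded them by 22.1 ± 4.77 points (SD, n = 6; 17.1 to 29.4, higher in 6 of 6 libraries; exact two-sided sign-flip test over libraries, p = 0.03125, adjusted 0.03125 over 4 tests). Their median peak width was larger by 316 ± 7.51 bp (SD, n = 6; 305 to 323.5, in 6 of 6 libraries; exact p = 0.03125, adjusted 0.03125). That p is the smallest 6 libraries can give. When only the strongest 50% of each list was kept, the differences were 13.9 points and 127 bp.

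Members were slightly weaker than regions shared by the ends of several genes, as at divergent gene pairs. The 1593 shared regions had a median percentile of 79.3, 81.4 and 77.6 in wild type and 82.9, 84.1 and 84.7 in SE/SE. Members lay 3.00 ± 1.12 points below them (SD, n = 6; lower in 6 of 6 libraries), a difference of -3.00 (exact two-sided sign-flip p = 0.03125, adjusted 0.03125). Member peaks were also narrower, with a width difference of -56.8 ± 7.50 bp (SD, n = 6; lower in 6 of 6 libraries, exact p = 0.03125, adjusted 0.03125). With gene ends counted up to 2 kb from the midpoint these differences were -0.847 points and -12.9 bp, so their size depended on the distance that defines a shared end. The width difference was -89.75 bp with a limit of 500 bp and -24.25 bp with the strongest 50% of each list, and the percentile difference was -1.94 with members at a known gene start only.

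**Figure D1:**
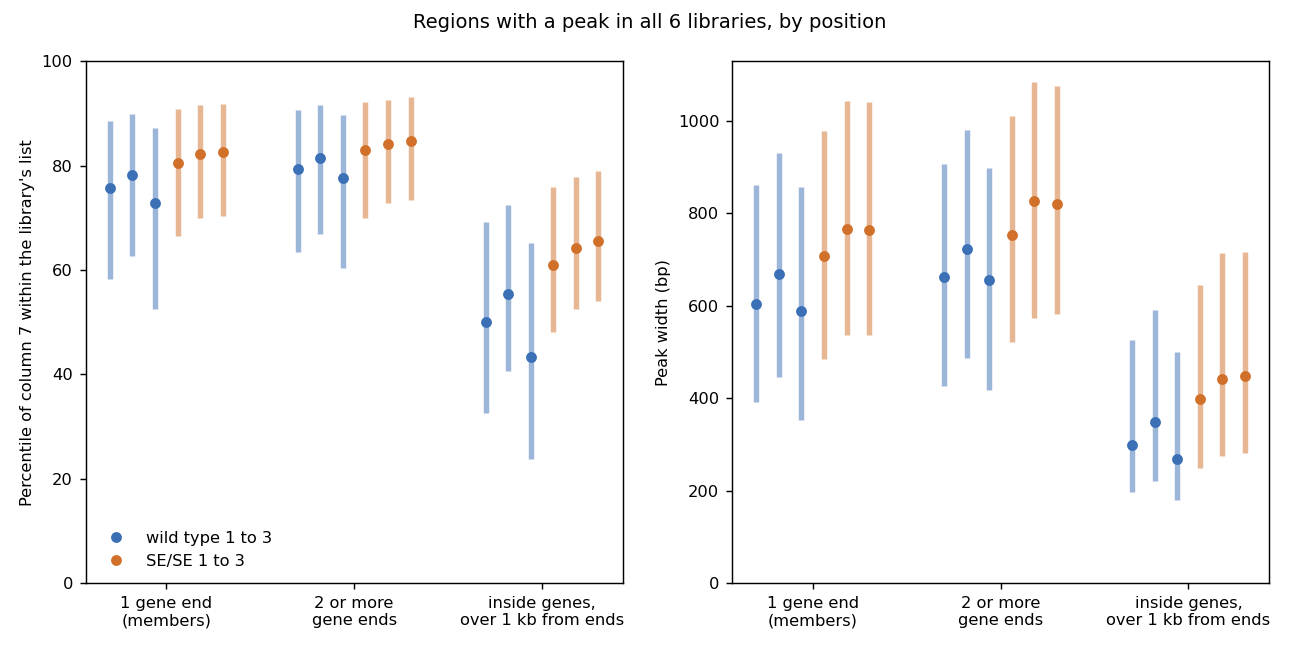
Median within-list percentile of the deposited signal (left) and median peak width in bp (right) for regions found in every library, 1 point per library coloured by genotype with a bar from the first to the third quartile of the regions, by class of region. Members at 1 gene end lie far above regions inside genes and slightly below regions shared by several gene ends in each library.

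Width varied widely among the members. The merged regions ran from 126 bp at Nfatc4 to 3974 bp at Jun, with a median of 803 bp and quartiles of 576 and 1085.75 bp. Only 171 exceeded 2000 bp and 11 exceeded 3000 bp. These 11 lie at Zswim6, Jun, Tle1, Trib1, Insm1, Adgrl2, Irs2, Basp1, Fzd8, E2f3 and Efna5, named after their widths were seen. Several encode regulators of transcription (Jun, Tle1, Insm1, E2f3) or parts of signalling pathways (Fzd8, a Wnt receptor, Irs2, an insulin receptor substrate, and Efna5, an axon guidance ligand). At the other extreme, 595 members were under 300 bp and 101 under 200 bp. In 1922 members (21.0%) at least 1 library had more than 1 peak within the region. Width and strength rose together across members (Spearman's rho 0.902, n = 9150 regions of the same 6 libraries), and since the signal is summed over the peak, the values are not independent.

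The spread of a member's percentile over the libraries was smaller for strong members than for weak ones, on a scale that ends at 100 and so leaves strong members little room. Members were split by strength into 4 groups of equal size (quartiles). In the strongest quartile the median percentile was 94.9 and the median SD over the 6 libraries 0.867 points. In the weakest quartile these were 50.2 and 9.98 points, with 84.5 and 2.73, then 71.9 and 5.21, for the quartiles between. Median region width over the quartiles from strong to weak was 1231, 887, 686 and 439 bp. Of the members, 1724 (18.8%) lay above the 90th percentile in all 6 libraries. By contrast 262 lay at or under the 10th percentile in at least 1 library and 0 did in all 6. The 100 strongest members of each library overlapped in 69, out of 137 that were among the 100 strongest of at least 1. The 100 weakest overlapped in 5 out of 294. The spread also includes the difference in list length: with 27873 peaks from each library the SD of the median percentile over libraries was 0.127, against 3.89 with the full lists.

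The strongest member was at Zswim6, a gene for a zinc finger SWIM domain protein. Its peak ranked 13, 14 and 16 among all peaks of the wild-type lists and 13 in each SE/SE list, a percentile of 99.96, and the peaks were 2976 to 3270 bp wide (chr13:107888521-107891790, 3270 bp, gene ID 67263, across the gene start). Zbtb20, a transcriptional repressor of neural development, followed with ranks of 17, 18 and 18 in wild type and 19, 23 and 22 in SE/SE (chr16:42874871-42876510, 1640 bp). The ranks of Sp4, a GC-box binding factor prominent in neurons, were 18, 17 and 21 in wild type and 20, 19 and 21 in SE/SE (chr12:118300717-118302826, 2110 bp). These genes stayed among the 23 strongest peaks of every list.

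Jun, the AP-1 subunit encoded by an immediate early gene, had the widest member and the most variable rank of the first 5: 30, 15 and 28 in wild type and 14, 12 and 14 in SE/SE, with peak widths of 3205, 3740, 3193, 3922, 3970 and 3961 bp (chr4:95049768-95053741). Jun ranked lowest in wild type 1 and wild type 3, which also had its narrowest peaks. The other strong members were at Dipk2a, Ncoa2 (a nuclear receptor coactivator), Gsk3b (a kinase of the Wnt pathway), Klf10 (a TGF-beta-inducible factor), Syncrip (an RNA-binding protein), Atp2b1 (a plasma membrane calcium pump), Ube2d3 (a ubiquitin-conjugating enzyme) and Rap2b (a small GTPase). Across the 12 strongest, mean percentiles ran from 99.90 to 99.96 and region widths from 1640 to 3974 bp. No library put any of them below the percentile of 99.77 that Rap2b had in wild type 3, and wild type 3, the shortest list, gave the lowest value for 11 of the 12.

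The order at the top depended on width. Ranked by signal per base of peak, 1 of the 12 strongest members stayed in the first 12 and 6 in the first 100. Zbtb20 had the highest percentile of the 12, 99.9, while Jun lay at 86.6 and Rap2b at 93.0. By the deposited −log10 p, 0 of the 12 stayed in the first 12 and 5 in the first 100, with percentiles between 96.8 and 99.8. Over all members the mean percentile by signal correlated with that per base (Spearman's rho 0.841) and with that by −log10 p (0.919), as a description over 9150 regions.

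The weakest members were narrow and lay away from the gene end. The member at Zfp608, which encodes a zinc finger protein, had percentiles of 9.95, 4.90 and 2.75 in wild type and 1.87, 23.5 and 22.7 in SE/SE (mean 10.9 ± 9.83 SD, n = 6; chr18:54991870-54992038, 169 bp). Hcn2, a hyperpolarization-activated channel gene, had 16.2, 9.09 and 7.39 in wild type and 15.7, 22.8 and 8.85 in SE/SE (13.3 ± 5.94; chr10:79716555-79716699, 145 bp). Nfatc4, a calcineurin-dependent factor, had 14.8, 9.48 and 8.03 in wild type and 6.50, 16.4 and 28.3 in SE/SE (13.9 ± 8.03; chr14:55824084-55824209, 126 bp). In each of these the within-list percentiles of the genotypes overlapped, but such percentiles depend on list length. By rank among the regions found in all 6 libraries, the genotypes overlapped at Zfp608 only. Hcn2 had ranks of 5.09, 0.646 and 4.25 in wild type and 0.380, 0.401 and 0.0506 in SE/SE. Nfatc4 had 4.40, 0.696 and 4.70 in wild type and 0.0928, 0.139 and 0.650 in SE/SE. These differences of -3.05 and -2.97 points were under the 10 points required below. Among Zfp608, Hcn2 and Nfatc4, only the region at Hcn2 spanned the listed start, its midpoint lying 7 bp from it.

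The member at Barhl2, a homeobox gene of amacrine and ganglion cells, varied most of the weakest: 11.1, 0.503 and 2.33 in wild type and 2.28, 30.5 and 40.0 in SE/SE (14.47 ± 16.8 SD, n = 6). Its peak was 124, 98, 91, 106, 427 and 382 bp wide in the same order. It lay at the far end of the gene (chr5:106453187-106453613). Barhl2 had 3 members, and the strongest of them had a percentile of 67.8 and a region of 950 bp. The rest of the 12 weakest were at Nudt16l1, Smad9 (a BMP-responsive SMAD), Rit1 (a Ras-like GTPase), Pi4k2b (a phosphatidylinositol kinase), Rpusd1, Coq8b (coenzyme Q synthesis), Dop1b and Timeless (replication fork protection). The 12 had mean percentiles of 10.9 to 17.6, and each was at or under the 10th percentile in at least 1 library. Their midpoints were over 400 bp from the gene end in 11 of 12, against 19.4% of all members.

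Many weak members stood beside another region found in all 6 libraries, of any class and not necessarily at the same gene. A stronger one lay within 2 kb in 10 of the 12 weakest, as for Dop1b, whose neighbour 157 bp away had a percentile of 95.8, and Nfatc4, whose neighbour 126 bp away had 75.7. Of the 186 members under the 30th percentile, 92 (49.5%) had a neighbour of any strength within 2 kb, against 1317 (14.4%) of all members. Where several lay within 2 kb, the strongest was taken as the neighbour. In 90 of these 92 the neighbour was stronger than the member, which this choice and the choice of weak members favour. The neighbours had a median percentile of 71.5 at a median gap of 292.5 bp. In all, 370 genes had 2 members, 16 had 3 and 4 had 4. In genes with 2, the stronger had a median percentile of 74.2 and the weaker 43.7. Hcn2 and Rpusd1 had no such neighbour. Every one of the 186 overlapped a peak in both of the authors' 2 joint lists, as did all 9150 members.

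**Figure D2:**
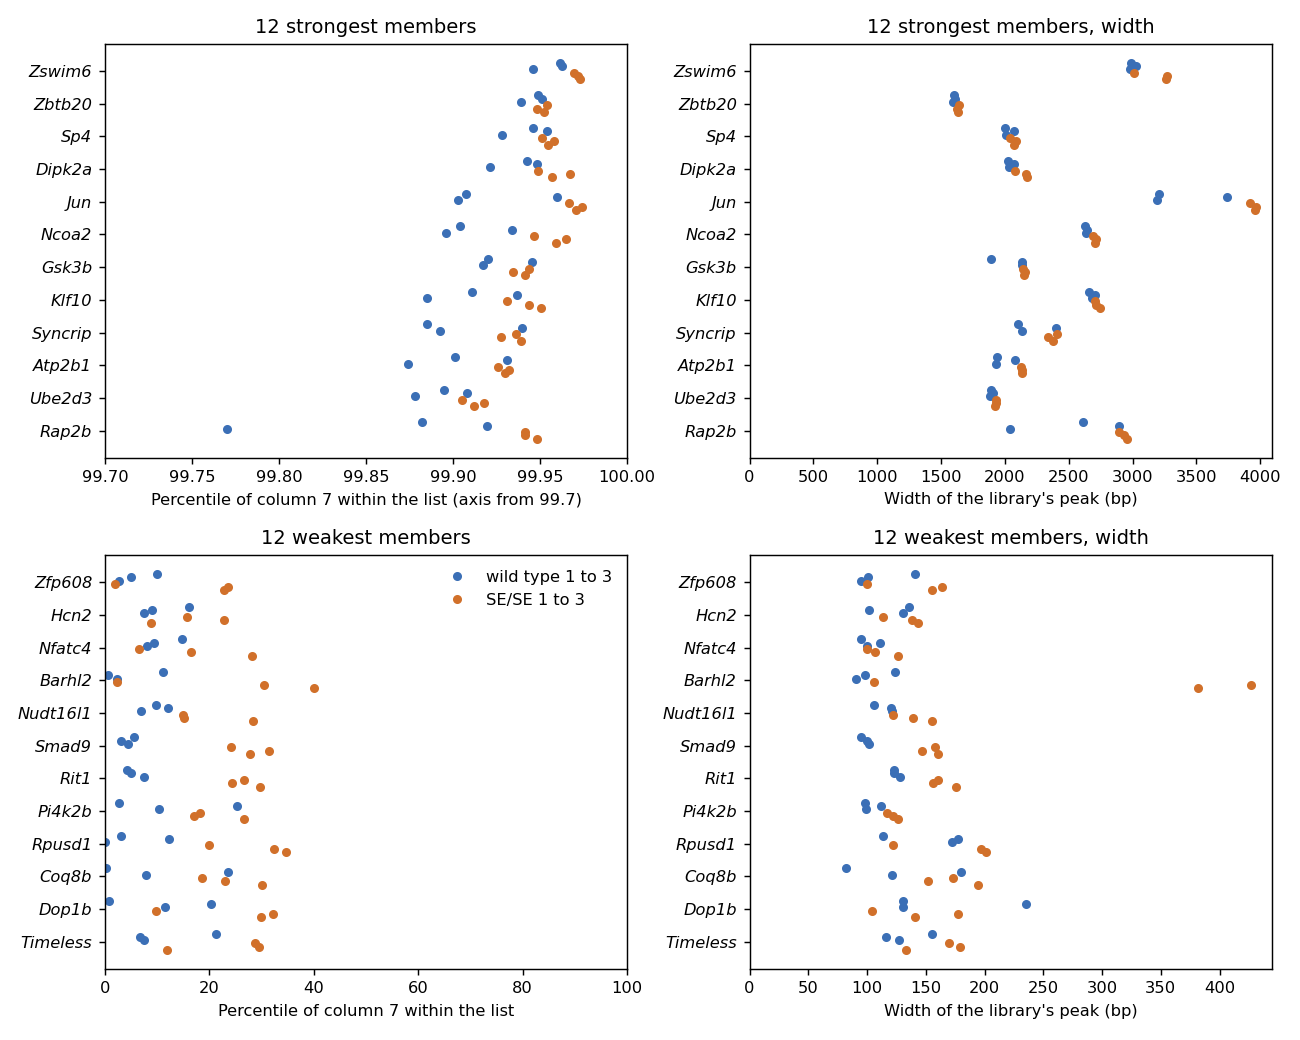
Within-list percentile of the deposited signal (column 7, left) and peak width in bp (right) in each of the 6 libraries for the 12 strongest members (top, percentile axis from 99.7) and the 12 weakest (bottom, axis from 0), 1 point per library coloured by genotype. The strongest lie within a fraction of a point of each other in all libraries, and the weakest spread from 0.0933 to 40.0.

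Gene lists were described with each gene counted by its strongest member. Genes used in every cell had members of middling strength. Of 61 cytosolic ribosomal protein genes, 46 had a member (75.4%, against 42.3% of all genes), with a median percentile of 77.1 against 79.7 over all member genes. Their range was from 46.4 at Rpl6 to 97.8 at Rps29. A further 12 had only a region shared with another gene. Of 68 genes of the mitochondrial ribosome and respiratory chain, 36 had a member (median 71.1, from Mrpl3 at 24.8 to Atp5g1 at 92.5) and 27 a shared region only. Proteasome genes had a member in 22 of 31 (median 74.6, Psmb5 48.2 to Psmc6 89.8) and splicing factors in 23 of 45 (median 83.2, Snrpc 61.7 to Srsf5 92.6), with 8 and 17 shared. Mrpl3 varied widely, with 9.81, 9.91 and 12.7 in wild type and 33.6, 42.1 and 40.9 in SE/SE, while Rps29 stayed between 97.3 and 97.9. Within-list percentiles depend on list length, so they do not compare the genotypes. By rank among the regions found in all 6 libraries, Mrpl3 had 2.33, 0.730 and 8.13 in wild type. It had 4.54, 6.43 and 4.28 in SE/SE, so the genotypes overlapped (a difference of 1.35 points).

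Genes of dividing retinal progenitors were mostly members. In the cell cycle and DNA replication list 47 of 58 had one (81.0%, median percentile 81.9), from Prim1, a primase subunit, at 44.4 to Ccne2, the cyclin of S-phase entry, at 99.5. Ccne2 lay between 99.13 and 99.73 in all libraries. Of 26 retinal progenitor regulators, 22 had a member (84.6%, median 79.7), and their regions had a median width of 1027 bp against 824 bp over all member genes. Fzd5, a Wnt receptor of the optic vesicle, had the highest percentile, 97.9 ± 0.403 (SD, n = 6). Other members of the list, named outside the rule, were Six6 at 95.04, Sox2 at 83.2, Rax at 69.0 and Pax6 at 64.4, all eye field or progenitor factors.

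All 21 genes of the neurogenic transition had a member, with a median percentile of 73.2 that was below that of all member genes. Insm1, a zinc finger gene of newly committed neurons, had 99.54, 99.55 and 99.38 in wild type and 99.82, 99.88 and 99.86 in SE/SE (region 3093 bp). Neurod4, a proneural factor, was the weakest, with 42.5, 44.6 and 7.74 in wild type and 40.5, 47.0 and 51.8 in SE/SE. Its value in wild type 3 stands far below the rest. Gadd45a (99.2), Sox11 (98.1) and Neurog2 (95.6) were other strong members of this list, named after their values were seen.

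Genes of differentiating neurons varied widely in strength. Of 38 retinal ganglion cell genes, 21 had a member (55.3%, against 42.3% of all genes), 8 had a region at 1 gene end in some libraries only and 8 had none. Their median percentile was 65.7, and 5 of the 21 were in the weakest decile of all member genes. Klf7, a factor of axon growth, had 97.8 ± 0.371 (SD, n = 6). Stmn3, a microtubule regulator of neurons, had 4.4, 20.8 and 3.80 in wild type and 19.4, 42.6 and 30.1 in SE/SE. By rank among the regions found in all 6 libraries, the genotypes overlapped at Stmn3, with a difference of 0.869 points. Among the ganglion cell factors Isl1 had 89.9, Pou4f1 86.8 and Pou4f2 44.6 ± 22.2. Other retinal neurons had 10 of 25 genes with a member (median 73.2, Tfap2b 34.4 to Prkca 84.2). The lists were not tested against each other.

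Markers of cells outside the neural retina checked the labelled tissue. Only 8 of 35 such genes had a member and 19 had no region at 1 gene end, and of 20 genes of other adult organs 5 had a member and 14 had none. Foxc1, a mesenchymal factor, was the strongest of the first list at 81.3 and Col1a1, a collagen of mesenchyme, the weakest at 40.0. Krt10 (66.1), a keratin gene, was a member through a region at its far end. Of its vascular and blood markers, Kdr (77.8) and Spi1 (67.8) had a member, and those without one included Pecam1, Cdh5 and Ptprc.

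**Figure D3:**
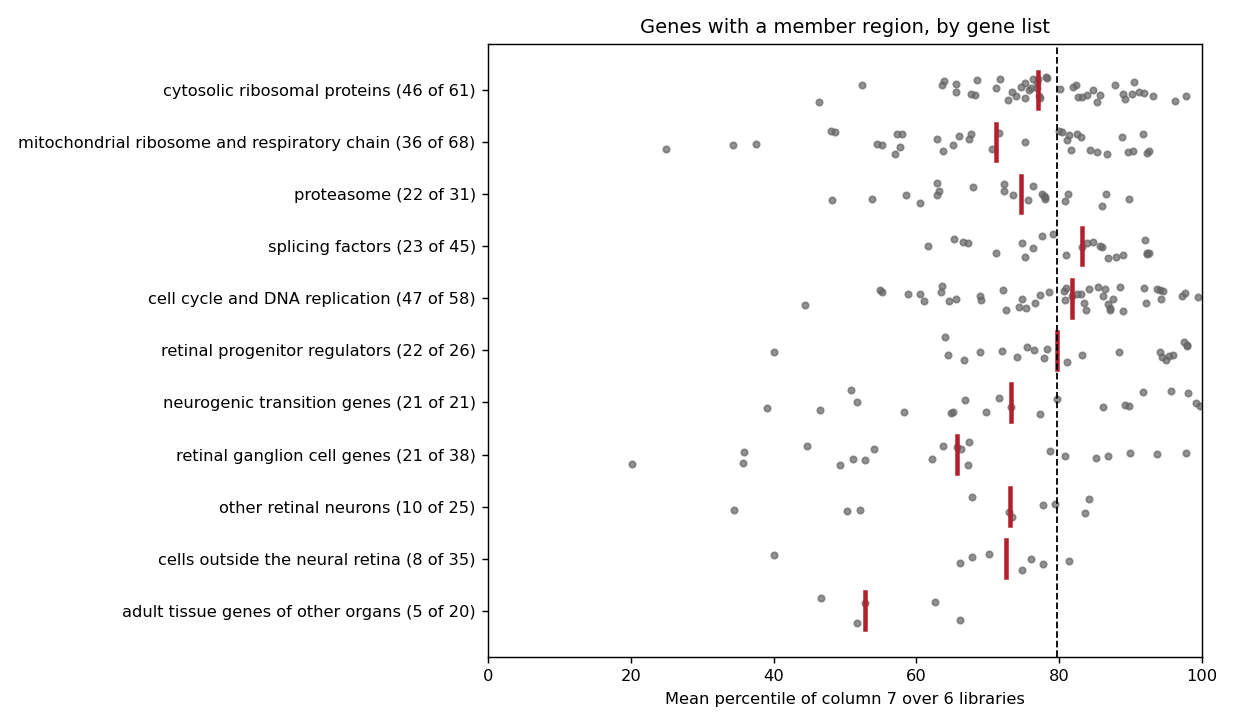
Mean within-list percentile of each member gene in 11 gene lists, 1 point per gene, with the median of the list as a red bar, the median of all member genes as a dashed line, and the number of genes with a member beside the number found. Points of the ganglion cell list reach lower than those of the cell cycle list.

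Stronger members had promoters richer in CpG. For 6365 members the RefSeq table held a start inside the region. Over the 300 bases from 250 before to 50 after the start, the median ratio of observed to expected CpG was 0.861 in the strongest quartile and 0.807, 0.766 and 0.682 in the others, against 0.586 over all 20085 promoters of the table and 0.175 over the 6874 overlapped by no peak of any list. Median GC content was 67.3%, 63.7%, 60.7% and 58.7% over the same quartiles. The ratio exceeded 0.6 in 91.0% of the strongest and 63.7% of the weakest quartile, and in 2.44% of promoters with no peak. Across the 6365 members the percentile correlated with the GC content (Spearman's rho 0.360) and with the CpG ratio (0.301), as a description over promoters of the same libraries. The part of GC content in amplification and read recovery was not tested.

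Of 12 motifs searched on both strands, the GC box was the most common. GGGCGG, bound by SP and KLF factors, was in 83.6%, 74.99%, 67.8% and 61.4% of the quartiles from strong to weak, against 47.0% of all promoters and 9.24% of those with no peak. CCAAT, bound by NFY, was in 42.9%, 43.0%, 36.5% and 32.5%, near the 38.1% of all promoters. The ETS motif CCGGAAG was in 13.3% of the strongest quartile and 20.6%, 20.1% and 16.5% of the others, against 11.9% of all promoters. TATAAA ran the other way, in 3.84%, 5.24%, 7.24% and 7.98% of the quartiles, against 12.7% of all promoters and 25.02% of those with no peak. None of the 12 motifs contains another, but each may overlap another in place. A motif that holds CG is itself part of the CpG content, so these values are not independent. Over the quartiles the GC box fell with the CpG ratio, but the ETS motif, which also holds CG, was least common in the strongest quartile.

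CTCGCGAG, the methylation-sensitive motif bound by BANP, was rare: it was in 119 members (1.87%), against 1.21% of all promoters and 0.0582% of those with no peak. It was in 2.60%, 2.20%, 1.64% and 0.594% of the quartiles, and members with it had a median percentile of 86.8 against 80.9 without it. The 4 strongest members with the motif are shown over 40 bases (GRCm38.p6, RefSeq promoter table, strand of the gene), with the motif in capitals.
Ube2d3 (chr3:135438309-135438348, plus strand): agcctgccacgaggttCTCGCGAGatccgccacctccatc
Cul3 (chr1:80340795-80340834, minus strand): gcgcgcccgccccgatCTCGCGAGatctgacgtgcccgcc
Smarca5 (chr8:80739507-80739546, minus strand): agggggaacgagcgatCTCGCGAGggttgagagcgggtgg
Lims1 (chr10:58323429-58323468, plus strand): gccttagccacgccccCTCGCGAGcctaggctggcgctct
In the order shown the motif lay 147, 120, 63 and 94 bases before the start. Their percentiles were 99.9, 99.2, 99.1 and 98.98. Both Ube2d3 and Cul3 act in ubiquitin transfer, Smarca5 is a chromatin remodelling ATPase and Lims1 an adaptor of cell adhesion. The match is a description of letters, not of binding.

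Some strong members had few CpG. Of the 6365, 352 (5.53%) had a ratio under 0.4, with a median percentile of 66.2 against 81.8 for the rest and a median width of 639 against 853 bp. The 3 strongest of them are shown as above, with CG in capitals.
Tmtc2 (chr10:105574480-105574599, minus strand): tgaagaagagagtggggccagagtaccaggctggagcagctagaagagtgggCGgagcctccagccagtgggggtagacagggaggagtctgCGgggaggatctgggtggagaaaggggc
Syt1 (chr10:109010976-109011095, minus strand): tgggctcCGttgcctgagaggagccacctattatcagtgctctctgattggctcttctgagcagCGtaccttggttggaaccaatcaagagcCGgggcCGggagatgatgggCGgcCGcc
Hs3st5 (chr10:36506687-36506806, plus strand): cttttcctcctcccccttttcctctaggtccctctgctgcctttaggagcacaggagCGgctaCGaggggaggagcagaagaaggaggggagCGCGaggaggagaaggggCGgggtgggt
These 120 bases held 2, 6 and 5 CG, and the percentiles were 99.3, 98.7 and 98.4 with regions of 2021, 1803 and 2096 bp. Syt1 encodes the calcium sensor of synaptic vesicle release.

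**Figure D4:**
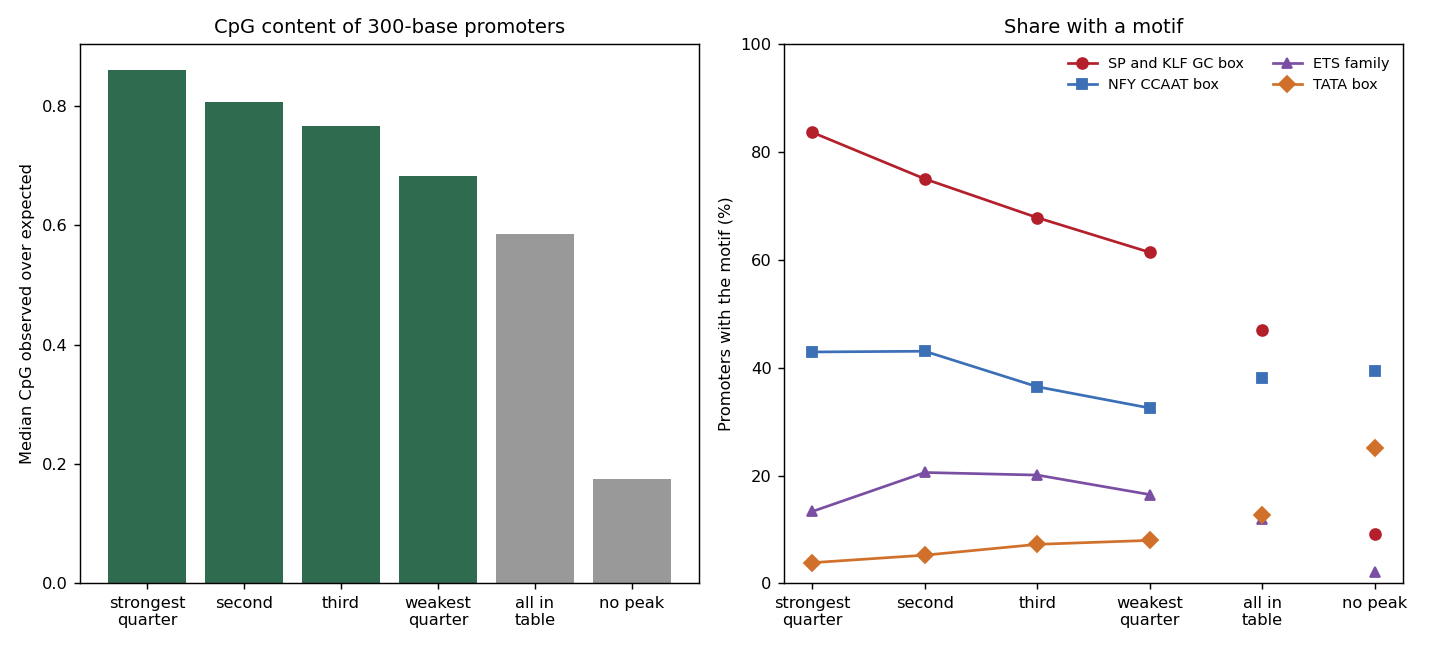
Median ratio of observed to expected CpG (left, bars from 0) and percent of promoters with each of 4 motifs (right) in the 300-base promoters of the 4 quartiles of members by strength, all promoters of the table and promoters with no peak in any library. CpG ratio and the share with a GC box are highest in the strongest quartile, and the share with TATAAA is highest where no library had a peak.

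Member peaks were wider in SE/SE libraries. The median width was 605, 670 and 590 bp in wild type and 708, 765.5 and 764.5 bp in SE/SE (622 ± 42.5 against 746 ± 32.9 bp, SD, n = 3 each), so the genotypes did not overlap. The difference was 124 bp (exact two-sided permutation test, p = 0.1, the smallest that 3 against 3 can give), so this design cannot reach 0.05. The mean peak was wider in SE/SE at 9046 members (98.9%). The same difference was found in the other classes, from 306 to 430 bp inside genes and from 681 to 800 bp at shared ends (exact p = 0.1 for each). SE/SE libraries also had longer lists and fewer PCR cycles, and the part of these in the width was not tested.

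Genotypes were compared by rank among the 23702 regions found in every library, so that each library ranked the same regions. This set still depends on the lists, and the signal on peak width, so the part of list length was not tested. A member was counted as different where the 3 wild-type and the 3 SE/SE percentile ranks did not overlap and their means differed by 10 points or more, with no p-value. By this rule 292 members (3.19%) ranked higher in SE/SE, against 4.19% of all 23702 regions, and 102 (1.11%) ranked higher in wild type, against 2.43% of all. Both shares were below that background. The median rank difference of the members was -0.54 points. Without wild type 2 the counts were 446 and 210, where fewer values had to lie apart. The shares of all regions in that setting are not given here, so these counts have no background beside them.

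The direction of these counts changed with the measure. By the summed signal 74.1% of the counted members ranked higher in SE/SE. By signal per base it was 39.8%, with 534 members (5.84%) higher in SE/SE against 10.5% of all 23702 regions, and 808 (8.83%) higher in wild type against 8.40%. By −log10 p it was 29.5%, with 67 members (0.732%) against 1.99% of all regions, and 160 (1.75%) against 2.75%. The wild-type share was thus slightly above the background per base, and the other shares were below it. Of the 292, 51 were counted in the same direction per base and 50 in the opposite one, and 38 were by −log10 p. Of the 102, 35 were counted in the same direction per base and 63 by −log10 p. The 292 had a median peak width of 484 bp in wild type and 885 bp in SE/SE, and the 102 had 248 and 298 bp, against 620 and 744 bp over all members. The mean peak was wider in SE/SE in 292 of 292, in 90 of 102 and in 98.9% of all members. The part of width in the counts was not tested.

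The largest difference toward SE/SE was at Lpl, the gene of lipoprotein lipase (chr8:68880555-68881731). Its ranks were 14.0, 17.0 and 8.50 in wild type and 48.1, 52.3 and 52.8 in SE/SE, a difference of 37.9 points. The strongest peak of the region was 157, 217 and 198 bp wide in wild type and 1156, 1172 and 1169 bp in SE/SE, and 3 libraries had more than 1 peak there. With the peaks of a library summed the difference was 25.6 points. Per base Lpl ranked 14.8 points lower in SE/SE (a difference of -14.8), and by −log10 p the difference was 1.39. Inhbb (37.0), an activin subunit, Prdm6 (34.6), Nkx3-2 (34.3) and Wnt16 (33.3) followed, with developmental regulators and a Wnt ligand among them. By −log10 p these 5 genes had differences of -1.41 to 3.30 points.

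Toward wild type, the largest difference was at Rps26, a ribosomal protein gene, with ranks of 29.8, 21.7 and 38.4 in wild type and 8.68, 7.57 and 12.9 in SE/SE (-20.3 points; chr10:128626249-128626573). Fam177a2 had 68.9, 72.5 and 72.5 in wild type and 56.0, 33.9 and 65.4 in SE/SE (-19.6; chr12:55199364-55200116). Its near copy Fam177a had 72.5, 70.5 and 69.0 against 53.8, 41.0 and 62.9 (-18.1; chr12:55124295-55125022). In both copies SE/SE 2 was the lowest library. Plekhg2 (-19.0) and Gm20594 (-17.4) completed the 5, and all 5 were also counted by −log10 p. Reads from Fam177a and Fam177a2, or from Rps26 and its pseudogenes, may not be separable, and the sources used here do not say how such reads were placed, so these values are uncertain.

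Atoh7 (gene ID 53404), the proneural factor needed for retinal ganglion cells and the gene whose enhancer was mutated, had 2 members. The first lay inside the gene (chr10:63099998-63100606, 609 bp), with percentiles of 67.7, 66.3 and 61.5 in wild type and 76.9, 77.5 and 79.7 in SE/SE (71.6 ± 7.42 SD, n = 6). Among the shared regions its ranks were 58.7, 52.2 and 56.3 against 63.1, 60.7 and 63.1, a difference of 6.53 points, under the 10 required. The second lay across the start (chr10:63099535-63099837, 303 bp, midpoint 99 bp from it), with percentiles of 35.8, 27.3 and 20.8 in wild type and 27.5, 34.9 and 37.6 in SE/SE. Its ranks among shared regions were 20.9, 6.08 and 14.9 in wild type and 2.01, 2.45 and 2.65 in SE/SE. It was thus counted as higher in wild type, by -11.6 points. Per base this was -7.47 and by −log10 p -9.54, both under 10 in size, and the first member differed by 21.9 points per base toward SE/SE. The 120 bases before the start of the gene (GRCm38.p6, RefSeq promoter table, CG in capitals) are shown because the second member covers them.
Atoh7 (chr10:63099665-63099784, plus strand): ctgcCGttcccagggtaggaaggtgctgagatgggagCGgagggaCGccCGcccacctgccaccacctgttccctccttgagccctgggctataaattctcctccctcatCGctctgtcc
This window held 5 CG, a GC box and the letters TATAAA close to the start, and the ratio of observed to expected CpG over 300 bases was 0.455, below the median of 0.794 over members.

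Of the 284 members in the 11 gene lists, 7 (2.46%) ranked higher in SE/SE and 5 (1.76%) in wild type, against 4.19% and 2.43% of all 23702 regions. Foxc1 was counted as higher in SE/SE by 12.5 points, with ranks of 65.1, 77.1 and 60.8 against 78.0, 82.3 and 80.1, but not per base (-11.9, overlapping) or by −log10 p (1.90). In the progenitor list, with 27 members, 1 ranked higher in SE/SE and 1 in wild type, and in the neurogenic list, also with 27, again 1 and 1. The ganglion cell, cell cycle and other retinal neuron lists had 1 and 0 each, out of 27, 48 and 13 members. Markers of cells outside the neural retina had 2 and 0, out of 8. The 4 lists of genes used in every cell, with 47, 36, 23 and 23 members, had 0 higher in SE/SE and 3 in wild type. Counts this small do not show a direction for any list, and none was tested.

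**Figure D5:**
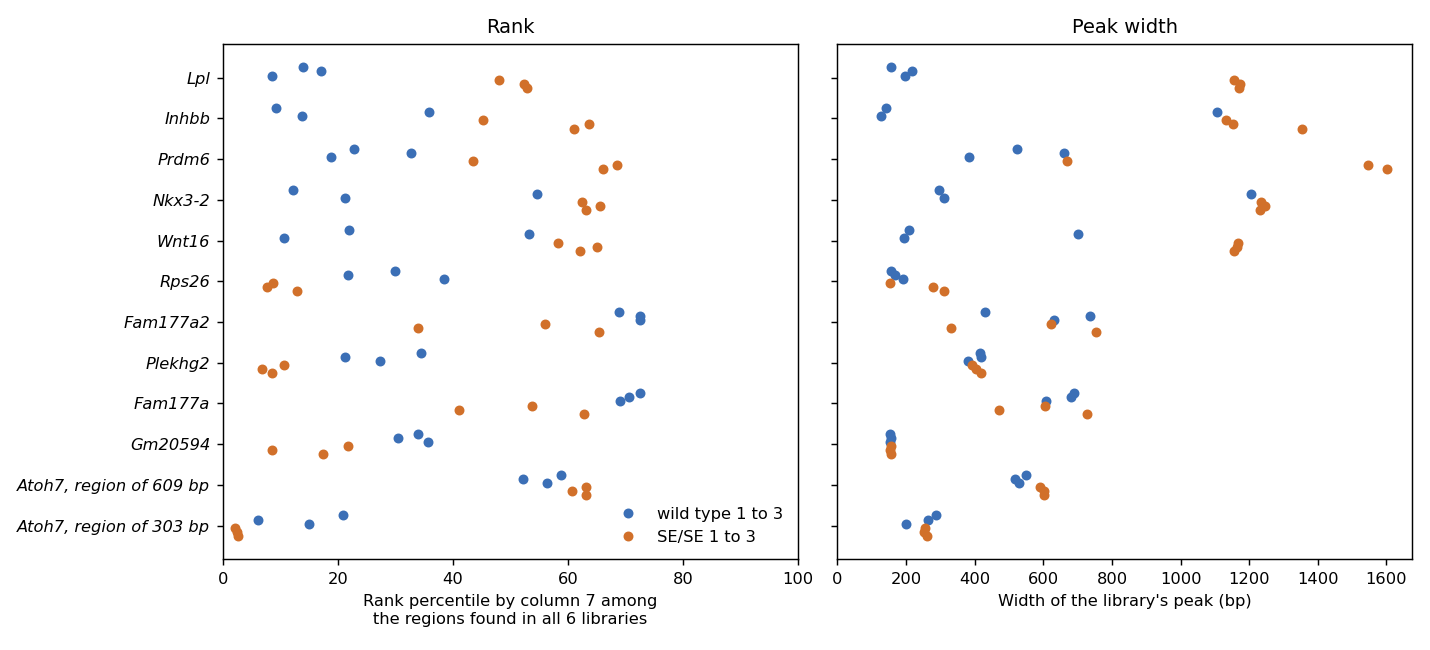
Percentile rank by the deposited signal (column 7) among regions found in every library (left) and peak width in bp (right) for the 5 members with the largest rank difference in each direction and both Atoh7 members, 1 point per library coloured by genotype. For Lpl the 3 SE/SE points lie above the 3 wild-type points in rank and in width, while Rps26 and Gm20594 rank higher in wild type with widths of 153 to 311 bp and 152 to 156 bp.

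The limit of 1 kb made no sharp change. The 96 members whose gene end was 950 to 1000 bp from the midpoint had a median percentile of 55.6 and a median width of 525 bp. The 92 regions just outside, at 1000 to 1050 bp, had 62.2 and 682.5 bp. By chromosome the share of genes with a member ran from 29.9% on chromosome 7 to 48.6% on chromosome 12. A long non-coding RNA gene also ended within 1 kb of 1229 members (13.4%), whose median percentile was 82.1 against 78.0 for the rest.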

How the data were processed

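The deposited files are 8 peak lists, 6 from single libraries and 2 joint lists named for a genotype. Per the submitters' processing notes, Genrich 0.5, BWA, cutadapt, limma and bedtools 2.27.0 were used with GRCm38 (mm10), in roles not stated, and trimming, duplicate removal, the Tn5 shift and read placement are not given in the sources used here. Per the file columns, the authors deposited a score, a signal (column 7), −log10 p-values and −log10 q-values for each peak. The deposited score equalled 1000 times the signal over the peak width, within 1 and capped at 1000, so the signal is summed over the peak. No counts were given, so depth is unknown and no test per region was made. How the joint lists were made is not given, and they serve only to describe overlap.

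Peaks on chromosomes 1 to 19 that shared 1 bp or more were merged. In each library the peak with the highest signal stood for the region. Gene ends came from protein-coding genes of the RefSeq table for GRCm38.p6, strands from its promoter table. Within-list percentiles, ranks among the 23702 regions found in every library, exact permutation tests over libraries and Benjamini-Hochberg adjustment over the 4 class differences followed. The genes named were the 12 strongest and 12 weakest, Atoh7, the highest and lowest of each of 11 gene lists, and 5 in each direction of rank difference; others are named as chosen later. A gene that this rule takes is not reported here. The members, lists and motifs were chosen with earlier results of these data known. Alternatives covered the overlap, the distance, the strongest 50% of each list, lists of equal length, the measure and each library left out. Python 3.11.15, numpy 2.4.6, pandas 2.3.3, scipy 1.17.1 and matplotlib 3.10.9 were used, and the steps were tested on simulated data.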

Additional observations from a re-analysis of the deposited data

How the results depend on the processing

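Of the alternatives' summary values, 104 kept their direction and side of the threshold, 9 moved and 24 lost the threshold. Among the 104, 7 differences between classes changed in size by over 1.5 times: to regions inside genes 13.9 points and 127 bp with the strongest 50% of each list, and to shared regions -24.25 bp with that list, -89.75 bp at 500 bp, -0.847 points and -12.9 bp at 2 kb, and -1.94 points with members at a gene start only. The 24 come from leaving out 1 library, where 5 libraries cannot give an exact sign-flip p under 0.0625. The median percentile of members was 68.0 with the strongest 50% of each list and 73.5 with 27873 peaks from each library. Members ranked higher in wild type numbered 176 with the strongest 50%, a count without the share over all regions beside it. By signal per base the counts were 534 higher in SE/SE and 808 in wild type, and by −log10 p 67 and 160. The cause of these changes was not tested.

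With 1 library left out at a time, there were 9156 to 9475 members. The width difference between genotypes was 107 to 148.5 bp and the median percentile 77.8 to 79.0. The difference to regions inside genes was 22.0 to 24.5 points and 315.3 to 348 bp, and to shared regions -3.09 to -2.93 points and -62.4 to -53 bp. Members ranked higher in SE/SE numbered 268 to 446 and in wild type 120 to 210, with both highest counts without wild type 2. Fewer values had to lie apart in these settings, and the shares of all regions are not given for them.

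Replicate numbers did not pair the libraries (correlations of deviations 0.000604, 0.0541 and -0.0588). With the replicate block the width difference stayed 124 bp (exact sign-flip p = 0.25, the smallest for 3 pairs). Restricted to the 7020 members at a gene start, an alternative chosen after seeing the data, the counts were 203 and 79 and the width difference 122 bp. Those counts were not compared with the share over all regions. Depth is unknown, so a peak missing from a library is not shown to be closed chromatin.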
